A study of Arabidopsis thaliana with 41 samples.

Results

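EDS1 (enhanced disease susceptibility 1) is a lipase-like protein of plant immunity that works in pairs with its relatives PAD4 (phytoalexin deficient 4) and SAG101 (senescence-associated gene 101). When immune receptors of the TIR type are activated, the EDS1-PAD4 pair acts with helper receptors of the ADR1 type and promotes salicylic acid signalling and basal resistance. The EDS1-SAG101 pair acts with helper receptors of the NRG1 type and is best known for promoting cell death. These helpers are nucleotide-binding leucine-rich repeat receptors (NLRs) with an RPW8-like N-terminal domain. The 9 genes described here were chosen by their identifiers as the 4 genes of the EDS1 family (*EDS1*, its tandem copy *EDS1B*, *PAD4* and *SAG101*) and 5 helper NLR genes (*ADR1*, *ADR1-L1*, *ADR1-L2* and the pair AT5G66900 and AT5G66910, called *NRG1A* and *NRG1B* below), of 32865 genes in the count table.

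RNA was sequenced from rosette leaves of Arabidopsis plants in the Col-0 background, grown in long days. *Atepl1-2* carries Cas9-made frameshift deletions in both *AtEPL1A* and *AtEPL1B*, which encode a subunit of the histone acetyltransferase complex NuA4. *Ateaf1-1* has both tandem *AtEAF1* genes disrupted with Cas9, which encode the platform subunit of NuA4. *glk* is the *glk1 glk2* double mutant, with transposon insertions in a pair of transcription factor genes for chloroplast development. Each mutant genotype was a single allele combination, and each library came from leaves pooled from several plants and was listed as a separate biological repeat. The libraries carried labels of 2 kinds that the labels do not explain: the first label set held 3 *Atepl1-2* libraries (replicates 1, 3 and 4) and 3 WT libraries (5, 7 and 8), and the second held 3 further *Atepl1-2* libraries (again numbered 1, 3 and 4), 3 *Ateaf1-1* and 3 *glk* libraries (1, 2 and 3 each) and 1 WT library (4). WT replicate 4 was thus the only WT library of the second set. All *Ateaf1-1*, *glk* and second-set *Atepl1-2* libraries were compared with WT libraries that came mostly from the other set.

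The 16 libraries held between 22330141 and 39666320 estimated counts. Counts on chloroplast genes made up 54.8% ± 1.15 (SD, n = 3) in *Atepl1-2* of the first set, 49.9% ± 5.02 (n = 3) in *Atepl1-2* of the second set, 46.8% ± 5.72 (n = 3) in *Ateaf1-1* and 62.7% ± 1.59 (n = 3) in *glk*, against 62.6% ± 2.54 (n = 4) in WT. A gene's level in different groups is given below as CPM, its share of the library's counts after scaling between libraries by the TMM method. Levels of different genes are compared as TPM, which corrects for transcript length. The TMM scale sets the median gene near no change (median log2 fold changes of 0.05, 0.05, 0.07 and 0.02 in *Atepl1-2* of the first and second set, *Ateaf1-1* and *glk* against WT), whereas on the log2(TPM + 0.1) scale the medians of all genes tested were 0.67, 0.88, 0.96 and 0.49. In whole leaves, fewer cells of a type and less RNA per cell cannot be told apart.

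In both NuA4 mutants the EDS1 family genes *PAD4* and *SAG101* were higher than in WT. *PAD4* stood out most. In *glk* nearly all of the genes were lower. A gene was said to rise or fall where edgeR's quasi-likelihood test gave a Benjamini-Hochberg FDR under 0.01 over all genes and the change was at least 1.5-fold. In *Atepl1-2* of the first set 8 of the 9 genes rose and none fell, beside 23.3% of all 18840 genes tested that rose. In *Atepl1-2* of the second set 3 of 9 rose (*PAD4*, *SAG101* and *ADR1*), beside 16.8% of 20733 genes. In *Ateaf1-1* 4 of 9 rose (*EDS1*, *PAD4*, *SAG101* and *ADR1-L1*), beside 13.6%. In *glk* 8 of 9 fell, beside 7.45% of all genes that fell. All 9 genes passed the filter on low counts in every fit. The median log2 fold change of the 9 genes was 1.47, 0.73 and 0.82 in *Atepl1-2* of the first set, *Atepl1-2* of the second set and *Ateaf1-1*, and −1.31 in *glk*. All *Atepl1-2* libraries of the first set were above WT libraries 5, 7 and 8 for 8 genes, beside 36.6% of all genes. All mutant libraries were above all 4 WT libraries for 4 genes in the second *Atepl1-2* set, beside 25.4%, and for 6 in *Ateaf1-1*, beside 23.6%. All *glk* libraries were below all WT libraries for 8 genes, beside 16.9%. The count of calls in *Atepl1-2* of the second set became 5 without WT replicate 7 and 2 without some other libraries. On the log2(TPM + 0.1) scale 8 of 9 genes rose in both that group and *Ateaf1-1*, where 9144 and 10038 of all 20733 genes rose. The *glk* count was the least steady: 8 of 9 became 2 without *glk* replicate 3, 4 without *glk* replicate 1, 2 once label set entered the model, 1 against WT replicate 4 alone and 1 on the TPM scale.

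**Figure D1:**
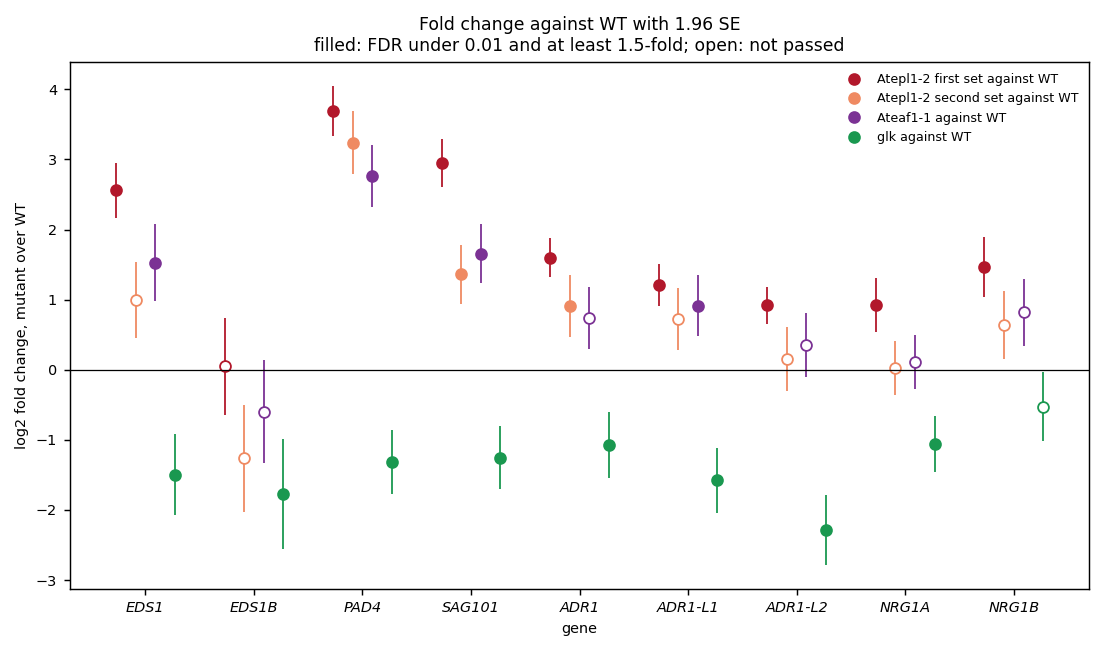
Log2 fold change of each gene in the mutant over WT (vertical axis) for the 4 comparisons with WT (colours), with bars for the 95% interval; filled points had an FDR under 0.01 and at least 1.5-fold, open points did not. *PAD4* stood highest in all 3 comparisons of NuA4 mutants, at 3.70, 3.24 and 2.76, and the *glk* points were all below 0 on this scale.

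In WT leaves all 9 genes had low TPM values, and 3 of the helper NLR genes had the highest means. These TPM values count organelle transcripts in the total. Scaled to nuclear genes alone, the WT means were 24.6 ± 5.40 for *ADR1-L1*, 17.3 ± 2.76 for *ADR1-L2* and 15.8 ± 4.19 for *NRG1A*. In order of mean TPM (n = 4), *ADR1-L1* had 5.91 ± 1.17 (SD), *ADR1-L2* 4.16 ± 0.52, *NRG1A* 3.74 ± 0.59, *EDS1* 3.07 ± 0.45, *SAG101* 2.90 ± 1.12, *PAD4* 2.06 ± 0.42, *NRG1B* 1.62 ± 0.67, *ADR1* 1.10 ± 0.06 and *EDS1B* 0.438 ± 0.218. The ranges of each gene and the next in this order overlapped, except for *ADR1* and *EDS1B*. In *Atepl1-2* of the first set the order was led by *PAD4* with 46.0 ± 6.80 TPM, *EDS1* with 30.6 ± 3.65 and *SAG101* with 30.1 ± 6.01 (n = 3), and the range of *PAD4* lay above that of *EDS1*. *PAD4* was also first in *Atepl1-2* of the second set, with 37.0 ± 8.46 TPM (n = 3) and a range above that of the next gene, *ADR1-L1*, with 20.0 ± 7.98. In *Ateaf1-1* *PAD4* was first with 28.2 ± 5.502 TPM, but its range overlapped that of *ADR1-L1* with 22.9 ± 0.33 (n = 3). In *glk* *PAD4* stood behind 6 other genes, with 1.15 ± 0.19 TPM (n = 3), and *ADR1-L1* first with 2.89 ± 0.42. *EDS1B* was last in every group.

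**Figure D2:**
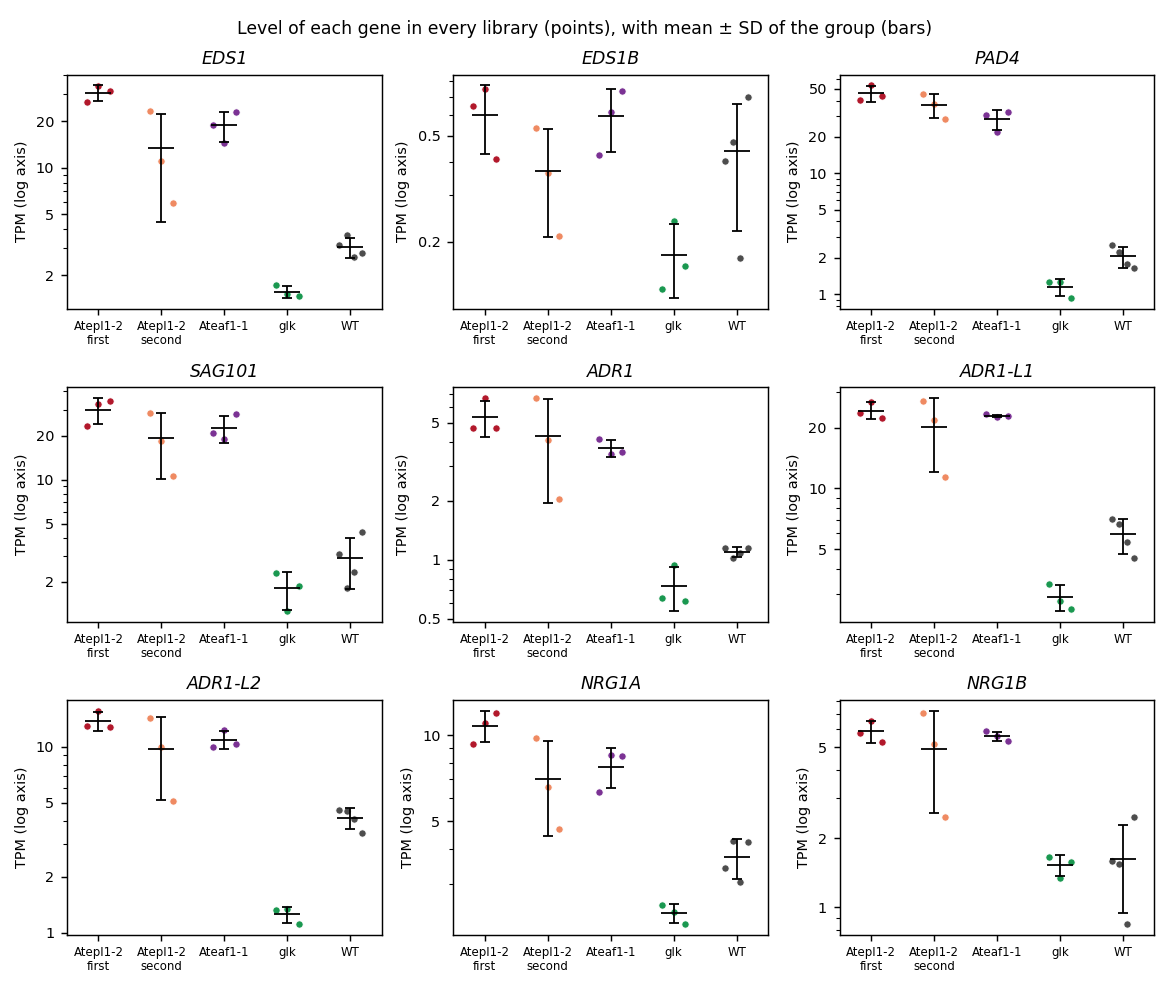
TPM of each of the 9 genes (panels, log axis) in every library (points) by group, with the group's mean ± SD as a horizontal mark and bar. For *PAD4*, mutant libraries of *Atepl1-2* and *Ateaf1-1* lay between 21.9 and 53.6 TPM, *glk* libraries between 0.928 and 1.27 and WT libraries between 1.65 and 2.57.

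*EDS1* (AT3G48090, TAIR10.1 chr3:17755329-17758147, minus strand, 4 exons) encodes the partner common to both pairs. In *Atepl1-2* libraries 1, 3 and 4 of the first set it had 126, 154 and 159 CPM, against 21.2, 31.9 and 20.2 CPM in WT libraries 5, 7 and 8. In *Atepl1-2* libraries 1, 3 and 4 of the second set it had 65.9, 39.0 and 29.0 CPM. In *Ateaf1-1* libraries 1, 2 and 3 it had 61.7, 51.8 and 81.2 CPM and in *glk* 8.15, 8.26 and 7.47 CPM, against 16.3 CPM in WT replicate 4. All *Atepl1-2* libraries of the first set and all *Ateaf1-1* libraries were above all WT libraries. All *glk* libraries were below them, and replicate 4 of the second *Atepl1-2* set fell within the WT range. The log2 fold change against WT was 2.56 ± 0.20 (SE; FDR 4.83e-06) in *Atepl1-2* of the first set, 1.53 ± 0.28 (FDR 7.14e-04) in *Ateaf1-1* and −1.499 ± 0.29 (FDR 0.00260) in *glk*. In *Atepl1-2* of the second set it was 0.99 ± 0.28, with an FDR of 0.0101 that missed the threshold, and 1.22 with an FDR of 0.00369 without its replicate 4.

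*EDS1B* (AT3G48080, chr3:17752463-17755190, minus strand, 3 exons) lies directly downstream of *EDS1*, with 138 bases between them, and encodes a close copy of EDS1. It had 3.08, 3.48 and 2.10 CPM in *Atepl1-2* of the first set and 1.52, 1.299 and 1.06 CPM in *Atepl1-2* of the second set, against 2.75, 4.10, 1.33 and 4.15 CPM in WT libraries 5, 7, 8 and 4. *Ateaf1-1* had 1.38, 2.23 and 2.58 CPM and *glk* 0.615, 1.33 and 0.814 CPM. The mutant groups overlapped WT apart from *glk*, whose highest library had 1.3276 CPM beside 1.3289 CPM in WT replicate 8. Its counts were small, between 22 and 135 in WT. *EDS1B* did not rise in any comparison with WT: the log2 fold change was 0.05 ± 0.35 (FDR 0.916) in *Atepl1-2* of the first set, −1.26 ± 0.39 (FDR 0.0166) in the second set, −0.60 ± 0.38 (FDR 0.220) in *Ateaf1-1* and −1.77 ± 0.40 (FDR 0.00636) in *glk*. In the second *Atepl1-2* set the DESeq2 Wald test placed it past the threshold, at −1.28 with an FDR of 0.00396. On the log2(TPM + 0.1) scale its difference in *Ateaf1-1* was 0.44, of the opposite sign, with an FDR of 0.285. The call of *EDS1B* in *glk* was lost in 4 of 7 fits that left out 1 library (FDR up to 0.0398).

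The copies can be told apart by most reads. Their coding sequences were identical at 84.0% of 1859 aligned bases, and 92 of the 2548 runs of 31 bases in *EDS1* transcripts, 3.61%, also occur in *EDS1B*. To show what separates them, the coding stretch that the study's qPCR primers for *EDS1* delimit (chr3:17757605-17757689) is given with the matching stretch of *EDS1B* (chr3:17755058-17755142), both on the minus strand from the RefSeq sequence of TAIR10.1, with capitals at the 15 of 85 bases that differ:
EDS1: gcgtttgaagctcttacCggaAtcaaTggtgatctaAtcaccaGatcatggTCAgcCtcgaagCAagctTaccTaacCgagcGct
EDS1B: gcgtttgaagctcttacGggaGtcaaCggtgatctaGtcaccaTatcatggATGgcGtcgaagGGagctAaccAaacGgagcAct
The forward primer differs from *EDS1B* at 4 bases and the reverse primer at 1, shown in capitals:
EDS1qF: agCgctcGgttAggtAagc
EDS1qR: gcgtttgaagctcttacCgg
Reads that fall in the shared runs were split by the authors' quantification, and *EDS1B* also overlaps AT3G48070 on the other strand by 503 bases. With *EDS1* and *EDS1B* summed into 1 row, the log2 fold change was 2.44 in *Atepl1-2* of the first set, 0.85 in the second set, 1.39 in *Ateaf1-1* and −1.53 in *glk*.

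The sequences upstream of the copies also differ. *EDS1* has 1 W box (TTGAC on either strand, in capitals, the core bound by WRKY factors) in the 250 bases before its annotated start, and the 138 bases between *EDS1* and the start of *EDS1B* have none. TTGAC occurs in 44.9% of 27443 upstream windows of 250 bases and in 28.6% of windows of 138 bases. These windows are shown because the neighbours differ in level and in change:
EDS1 upstream, chr3:17758148-17758397, minus strand: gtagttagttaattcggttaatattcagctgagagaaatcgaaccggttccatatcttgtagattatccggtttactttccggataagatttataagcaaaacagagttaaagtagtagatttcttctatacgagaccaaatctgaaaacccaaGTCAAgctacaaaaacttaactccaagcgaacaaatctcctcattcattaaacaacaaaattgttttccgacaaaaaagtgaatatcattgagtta
EDS1B upstream, chr3:17755191-17755328, minus strand: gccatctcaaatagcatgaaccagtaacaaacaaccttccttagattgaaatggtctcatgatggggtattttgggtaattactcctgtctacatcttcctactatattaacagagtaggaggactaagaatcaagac
No TTGAC was found in the 250 bases before *PAD4*, *ADR1* and *ADR1-L2*, nor in the shorter stretches that separate *SAG101* (114 bases) and *NRG1A* (171 bases) from the gene upstream, and 2 were found before *NRG1B*. The start of *ADR1-L1* lies inside another annotated gene, so no window was taken for it. A match or its absence describes only these letters in these windows.

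*PAD4* (AT3G52430, chr3:19431095-19434450, plus strand, 2 exons) encodes the partner of EDS1 in the module with ADR1-type helpers. It had 158, 199.8 and 182 CPM in *Atepl1-2* libraries 1, 3 and 4 of the first set and 110.4, 116 and 124 CPM in those of the second set, against 14.4, 15.6, 10.99 and 8.46 CPM in WT libraries 5, 7, 8 and 4. *Ateaf1-1* had 86.0, 69.5 and 97.3 CPM, and *glk* had 5.01, 5.95 and 4.02 CPM. No library of a NuA4 mutant came near the WT range, and all *glk* libraries were below it. *PAD4* was 13.0-fold higher in *Atepl1-2* of the first set (log2 fold change 3.70 ± 0.18, FDR 4.65e-07), 9.43-fold higher in the second set (3.24 ± 0.23, FDR 2.42e-07) and 6.79-fold higher in *Ateaf1-1* (2.76 ± 0.23, FDR 1.01e-06). In *glk* it fell by 1.31 ± 0.23 on the log2 scale (FDR 0.00137), and against WT replicate 4 alone by 0.76 with an FDR of 0.133. Unlike *EDS1*, *SAG101* and the ADR1-type genes, *PAD4* was not lowest in replicate 4 of the second *Atepl1-2* set on the CPM scale.

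EDS1, EDS1B and PAD4 carry the serine site of lipases (glycine, any residue, serine, any residue, glycine), and the codons, in capitals, differ among the 3 genes. They were found once in each coding sequence and not in that of *SAG101*, and are shown with 9 bases on either side, from the RefSeq sequence of TAIR10.1:
EDS1, codon 121 on, chr3:17757233-17757265, minus strand: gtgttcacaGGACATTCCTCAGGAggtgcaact
EDS1B, codon 121 on, chr3:17754682-17754714, minus strand: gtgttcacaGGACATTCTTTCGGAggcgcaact
PAD4, codon 116 on, chr3:19433003-19433035, plus strand: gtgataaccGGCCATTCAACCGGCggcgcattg

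*SAG101* (AT5G14930, chr5:4828499-4830982, plus strand, 3 exons) encodes the partner of EDS1 in the module with NRG1-type helpers, and was first described as a gene of leaf senescence. It had 67.6, 92.0 and 103 CPM in *Atepl1-2* of the first set and 39.7, 29.6 and 20.0 CPM in *Atepl1-2* of the second set, against 11.5, 10.4, 11.4 and 12.7 CPM in WT libraries 5, 7, 8 and 4. *Ateaf1-1* had 32.2, 31.2 and 46.2 CPM, and *glk* had 5.26, 4.83 and 4.501 CPM. All libraries of the NuA4 mutants were above WT and all *glk* libraries below it. The log2 fold change was 2.95 ± 0.17 (FDR 1.04e-06) in *Atepl1-2* of the first set, 1.36 ± 0.22 (FDR 1.95e-04) in the second set, 1.66 ± 0.22 (FDR 5.01e-05) in *Ateaf1-1* and −1.25 ± 0.23 (FDR 0.00158) in *glk*. Against WT replicate 4 alone the rises were 1.22 (FDR 0.0400) in *Atepl1-2* of the second set and 1.52 (FDR 0.0194) in *Ateaf1-1*, and in *glk* the fall was 1.39 (a log2 fold change of −1.39, FDR 0.0331), none of which passed the threshold with 1 WT library.

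*ADR1* (AT1G33560, chr1:12168768-12172119, plus strand) and its relatives *ADR1-L1* (AT4G33300, chr4:16050456-16056526, minus strand) and *ADR1-L2* (AT5G04720, chr5:1360589-1363907, plus strand) encode the helpers of the EDS1-PAD4 pair, which overlap in function. *ADR1* had 26.3, 36.0 and 28.2 CPM in *Atepl1-2* of the first set, 22.9, 17.6 and 12.5 CPM in the second set, 16.2, 15.8 and 14.99 CPM in *Ateaf1-1* and 3.53, 6.21 and 3.71 CPM in *glk*, against 9.26, 10.3, 9.73 and 8.21 CPM in WT libraries 5, 7, 8 and 4. *ADR1-L1*, the most abundant helper in WT, had 153, 169 and 157 CPM in *Atepl1-2* of the first set, 109, 111 and 82.1 CPM in the second set, 108, 126 and 112 CPM in *Ateaf1-1* and 21.7, 21.6 and 18.1 CPM in *glk*, against 68.4, 79.2, 56.9 and 38.2 CPM in WT. All libraries of both genes in the NuA4 mutants were above all WT libraries, and all *glk* libraries were below them. *ADR1-L2* had 74.7, 88.2 and 80.6 CPM in *Atepl1-2* of the first set, 51.6, 44.5 and 32.2 CPM in the second set, 41.0, 60.6 and 45.7 CPM in *Ateaf1-1* and 7.65, 9.11 and 6.92 CPM in *glk*, against 39.8, 48.6, 38.5 and 25.8 CPM in WT. For *ADR1-L2* only *Atepl1-2* of the first set was above WT throughout, while *glk* was below WT throughout.

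Relative to WT, *ADR1* rose by 1.60 ± 0.15 on the log2 scale (FDR 1.25e-05) in *Atepl1-2* of the first set and by 0.91 ± 0.23 (FDR 0.00505) in the second set, and had 0.73 ± 0.23 (FDR 0.0190) in *Ateaf1-1*. The call of *ADR1* in the second set was lost without any 1 of WT replicates 5, 8 and 4 or *Atepl1-2* replicates 1 and 3 (FDR of 0.0101 to 0.0295). *ADR1-L1* rose by 1.21 ± 0.15 (FDR 1.10e-04) in *Atepl1-2* of the first set and by 0.92 ± 0.22 (FDR 0.00527) in *Ateaf1-1*, and had 0.73 ± 0.22 (FDR 0.0172) in the second *Atepl1-2* set. The call of *ADR1-L1* in *Ateaf1-1* was lost without any 1 of the *Ateaf1-1* libraries or without WT replicate 8 (FDR of 0.0118 to 0.0195). *ADR1-L2* rose in *Atepl1-2* of the first set by 0.92 ± 0.14 (FDR 3.06e-04), and had 0.16 ± 0.23 (FDR 0.605) in the second set and 0.36 ± 0.23 (FDR 0.236) in *Ateaf1-1*. In *glk* the log2 fold change was −1.07 ± 0.24 (FDR 0.00544) for *ADR1*, a call lost in 5 of 7 fits that left out 1 library (FDR up to 0.0396). It was −1.58 ± 0.24 (FDR 4.66e-04) for *ADR1-L1* and −2.28 ± 0.25 (FDR 5.92e-05) for *ADR1-L2*, the largest fall of the 9 genes. *ADR1-L2* was the only 1 of the 9 that passed in *glk* on the log2(TPM + 0.1) scale, at −1.64, and against WT replicate 4 alone.

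*NRG1A* (AT5G66900, chr5:26714723-26717958, minus strand) and *NRG1B* (AT5G66910, chr5:26718130-26721377, minus strand) are tandem genes for helpers of the EDS1-SAG101 pair. *NRG1A* had 39.4, 44.5 and 53.8 CPM in *Atepl1-2* of the first set, 26.9, 22.9 and 22.9 CPM in the second set, 20.0, 29.2 and 28.3 CPM in *Ateaf1-1* and 11.2, 12.7 and 10.7 CPM in *glk*, against 19.5, 31.7, 20.2 and 23.9 CPM in WT libraries 5, 7, 8 and 4. *NRG1B* had 27.6, 30.1 and 26.98 CPM in *Atepl1-2* of the first set, 21.0, 19.3 and 13.0 CPM in the second set, 19.9, 21.0 and 19.5 CPM in *Ateaf1-1* and 7.83, 7.70 and 8.24 CPM in *glk*, against 10.5, 13.3, 6.34 and 15.2 CPM in WT. The second-set *Atepl1-2* and *Ateaf1-1* libraries of *NRG1A* overlapped WT, but the *glk* libraries were below it. For *NRG1B* *Ateaf1-1* was above WT throughout, while the second *Atepl1-2* set and *glk* overlapped it. In *Atepl1-2* of the first set *NRG1A* rose by 0.92 ± 0.20 (FDR 0.00281) and *NRG1B* by 1.47 ± 0.22 (FDR 3.03e-04). The call of *NRG1A* was lost without any 1 of 4 libraries (WT 5 or 8, *Atepl1-2* 3 or 4; FDR of 0.0108 to 0.0144).

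In *Atepl1-2* of the second set and in *Ateaf1-1* neither gene passed. *NRG1A* had log2 fold changes of 0.02 ± 0.20 (FDR 0.950) and 0.11 ± 0.20 (FDR 0.686) there, and *NRG1B* 0.64 ± 0.24 (FDR 0.0456) and 0.82 ± 0.24 (FDR 0.0161). In *glk* *NRG1A* fell by 1.06 ± 0.20 on the log2 scale (FDR 0.00228), and *NRG1B* had −0.53 ± 0.25 (FDR 0.150), a value near 0 on the log2(TPM + 0.1) scale (0.0026, FDR 0.999). The pair shared 184 runs of 31 bases (6.23% of those in *NRG1A*), and their coding sequences were identical at 84.4% of 2413 aligned bases. The sum of both had log2 fold changes of 1.11 in *Atepl1-2* of the first set, 0.25 in the second set, 0.38 in *Ateaf1-1* and −0.86 in *glk*.

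The P loop, which binds the nucleotide of an NLR, was looked for in the helpers by its usual pattern (glycine, any 4 residues, glycine, lysine, then serine or threonine). Its codons, in capitals with 9 bases on either side, are printed to show how far the helpers differ at a site common to the family:
ADR1, codon 193 on, chr1:12169659-12169700, plus strand: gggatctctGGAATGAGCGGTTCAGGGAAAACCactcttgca
ADR1-L1, codon 207 on, chr4:16053355-16053396, minus strand: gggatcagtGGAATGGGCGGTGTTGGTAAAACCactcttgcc
ADR1-L2, codon 207 on, chr5:1361357-1361398, plus strand: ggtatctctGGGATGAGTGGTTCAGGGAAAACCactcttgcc
NRG1B, codon 196 on, chr5:26720516-26720557, minus strand: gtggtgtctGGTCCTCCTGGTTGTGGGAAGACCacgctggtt
The exact pattern was not found in *NRG1A* or in *NRG1C*, which does not show that they lack the site, since variants of the pattern were not searched. The coding sequence of *ADR1* was identical at 71.7% of aligned bases to that of *ADR1-L1* and at 76.0% to that of *ADR1-L2*, and few 31-base runs were shared with other genes (25 in *ADR1-L2*, 4 in *ADR1-L1* and 1 in *ADR1*). *ADR1-L1* overlaps 3 annotated genes on the other strand, the longest overlap being 1944 bases, and none of these had more than 0.604 CPM in any library.

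*NRG1C* (AT5G66890, chr5:26712944-26714472, minus strand), a shortened relative directly downstream of *NRG1A* and known to act against the NRG1 helpers, was detected in the NuA4 mutants and not in WT. It had 83 to 130 counts in *Atepl1-2* of the first set, 82 to 122 in the second set and 67 to 105 in *Ateaf1-1*, against 0 in each of the 4 WT libraries, and 0 or 1 in *glk*. With 3 counts allowed for in each WT library, *NRG1C* was at least 25.2-fold higher in *Atepl1-2* of the first set, at least 13.7-fold in the second set and at least 11.5-fold in *Ateaf1-1* (FDR 3.08e-05, 4.60e-06 and 7.39e-06). The gene passed the filter on low counts only through these NuA4 libraries. The FDR values therefore add little to the counts. *NRG1C* shares no run of 31 bases with other transcripts. Its level stayed low, at 4.37, 2.10 and 1.76 CPM in these 3 groups.

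Ratios between members within a library do not depend on how libraries are scaled. *PAD4* had 1.28 to 1.75 times the TPM of *SAG101* in *Atepl1-2* of the first set, 1.57 to 2.68 in the second set, 1.15 to 1.47 in *Ateaf1-1* and 0.492 to 0.996 in *glk*, against 0.378 to 1.23 in WT. In both *Atepl1-2* sets this ratio was above all WT libraries, and in *Ateaf1-1* and *glk* it overlapped WT. As a ratio of counts, which is free of the estimated transcript length, it was 1.77 to 2.33, 2.78 to 6.18, 2.10 to 2.67 and 0.894 to 1.23 in these groups, against 0.664 to 1.497 in WT, so that *Ateaf1-1* was then above WT too. *EDS1B* made up 1.29% to 2.37% of the summed TPM of *EDS1* and *EDS1B* in *Atepl1-2* of the first set, 2.25% to 3.48% in the second set and 2.18% to 4.05% in *Ateaf1-1*, all below the WT libraries at 6.17% to 20.1%. In *glk* its share was 7.11% to 13.8%, within the WT range.

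The summed TPM of the EDS1 family was higher relative to that of the helpers in the NuA4 mutants, although *EDS1B* itself did not rise. The summed TPM of the 4 EDS1 family genes was 1.78 ± 0.16 (SD, n = 3) times that of the 5 helpers in *Atepl1-2* of the first set, 1.56 ± 0.17 (n = 3) in the second set and 1.38 ± 0.30 (n = 3) in *Ateaf1-1*, against 0.513 ± 0.065 in WT (n = 4). In *glk* it was 0.537 ± 0.046 (n = 3), overlapping WT. The ADR1-type genes made up 72.2% ± 2.08 of helper TPM in *Atepl1-2* of the first set, 73.8% ± 1.63 in the second set and 73.8% ± 1.45 in *Ateaf1-1* (n = 3 each), against 67.5% ± 7.04 in WT (n = 4). In *glk* they made up 55.5% ± 2.13 (n = 3), below WT replicates 5, 7 and 8 (67.8% to 73.1%) and close to WT replicate 4 at 57.5%. WT replicate 4, of the same label set as *glk*, was also at the WT extreme for the ratio of *PAD4* to *SAG101* and for the share of *EDS1B*.

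**Figure D3:**
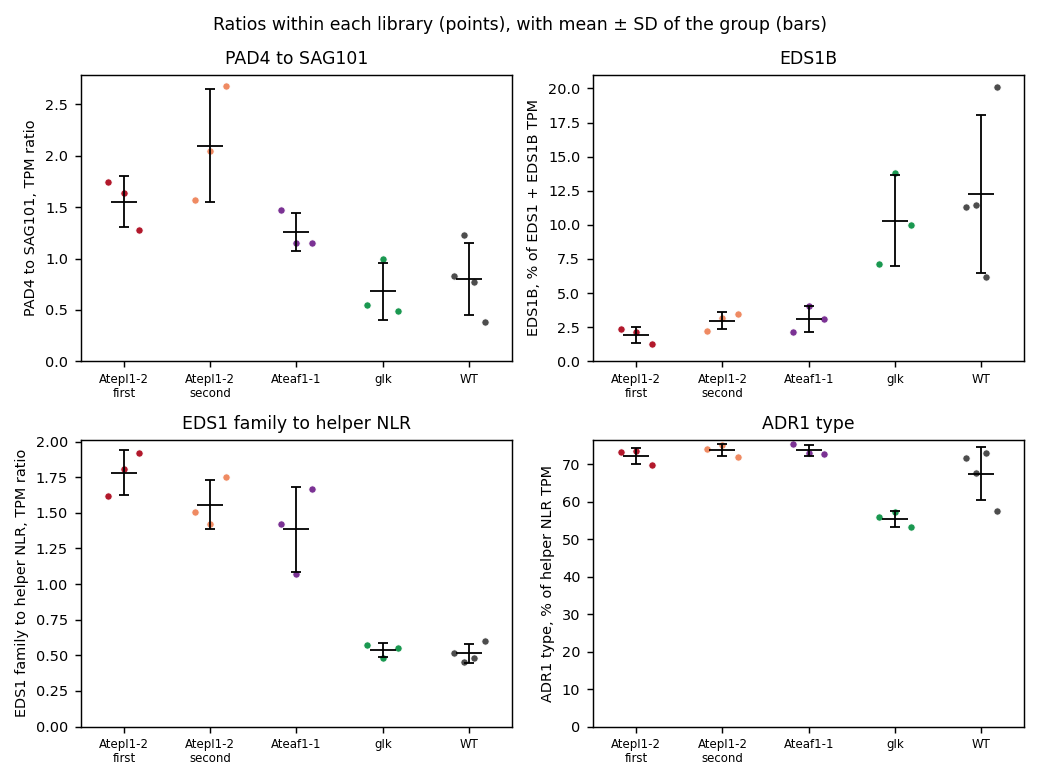
Ratios within each library (points) by group, with mean ± SD, for *PAD4* to *SAG101*, the share of *EDS1B* in *EDS1* plus *EDS1B*, the EDS1 family to the helper NLR genes, and the share of ADR1-type genes in helper TPM; all axes start at 0. The EDS1 family to helper ratio was 1.07 to 1.92 in the libraries of the NuA4 mutants, 0.485 to 0.573 in *glk* and 0.454 to 0.603 in WT.

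In edgeR few genes of any kind passed between the NuA4 mutants. Between *Atepl1-2* of the second set and *Ateaf1-1*, which share a label set, 0 of the 9 genes passed in edgeR, beside 0.13% of all genes. None of the 9 had an unadjusted p under 0.05 in edgeR. With the DESeq2 Wald test 0 of 9 passed, beside 907 of 20733 genes, and with limma-voom 0 of 9, beside 80 of 20733. The 95% intervals of the log2 difference, which assume a normal error and are slightly narrower than the test itself implies, still allowed sizeable differences: 0.47 (0.01 to 0.93) for *PAD4*, −0.54 (−1.12 to 0.05) for *EDS1*, −0.29 (−0.74 to 0.15) for *SAG101*, 0.18 (−0.29 to 0.65) for *ADR1* and −0.09 (−0.50 to 0.32) for *NRG1A*. All 3 *Atepl1-2* libraries were above all *Ateaf1-1* libraries for *PAD4* alone, beside 17.5% of all genes. Against *glk*, 8 of 9 genes were higher in *Atepl1-2* of the second set, beside 15.6% of all genes, and 8 of 9 in *Ateaf1-1*, beside 12.1%. *PAD4* differed most, with log2 fold changes of 4.55 ± 0.27 (FDR 6.35e-08) and 4.08 ± 0.27 (FDR 1.37e-07). *EDS1B* was the gene that did not pass, at 0.51 ± 0.41 (FDR 0.351) and 1.17 ± 0.41 (FDR 0.0408), although all 3 *Ateaf1-1* libraries were above the *glk* libraries. All libraries of the second *Atepl1-2* set were above those of *glk* for 8 of the 9 genes, beside 31.6% of all genes, and those of *Ateaf1-1* for 9 of 9, beside 28.6%. These comparisons share their *glk* libraries, and those against WT share their WT libraries.

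The *Atepl1-2* effect was larger in the first label set for several members, but the difference between the sets did not pass for any. In edgeR 0 of 9 genes had an FDR under 0.01 for the interaction of label set and genotype, beside 1.5% of all 22244 genes, while 5 had an unadjusted p under 0.05 (*EDS1*, *EDS1B*, *SAG101*, *NRG1A* and *NRG1B*), and 0 passed with limma-voom. *SAG101* came nearest, with a log2 difference between the effects of 1.75 ± 0.39 (FDR 0.0159), followed by *NRG1B* with 1.27 ± 0.37 (FDR 0.0488). *PAD4* had −0.07 ± 0.33 (FDR 0.955) and *ADR1-L1* −0.17 ± 0.29 (FDR 0.773). Without replicate 1 of the second *Atepl1-2* set *SAG101* passed, at 2.02 (FDR 0.00374). The effect in the second set rests on WT replicate 4 alone, which the test takes to vary like the other libraries.

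The TPM scale shifted the whole set of genes upward without changing the order of the members much. On the log2(TPM + 0.1) scale the difference for *PAD4* was 4.33 in *Atepl1-2* of the first set, 4.10 in the second set and 3.71 in *Ateaf1-1*, and for *NRG1A* it was 1.57, 0.84 and 1.03. The medians of all genes on this scale (0.67, 0.88 and 0.96) lay near the *NRG1A* values of the second set and of *Ateaf1-1*. In *glk* *EDS1* had −0.92, *PAD4* −0.78, *SAG101* −0.61 and *ADR1-L1* −0.998, against a median of 0.49. Direction relative to WT was the same on both scales except for *EDS1B* in *Ateaf1-1* and *NRG1B* in *glk*. The share of chloroplast counts was lower in the NuA4 mutants than in WT but not in *glk*, where the median of all genes was also above 0, and its part in the shift was not tested.

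**Figure D4:**
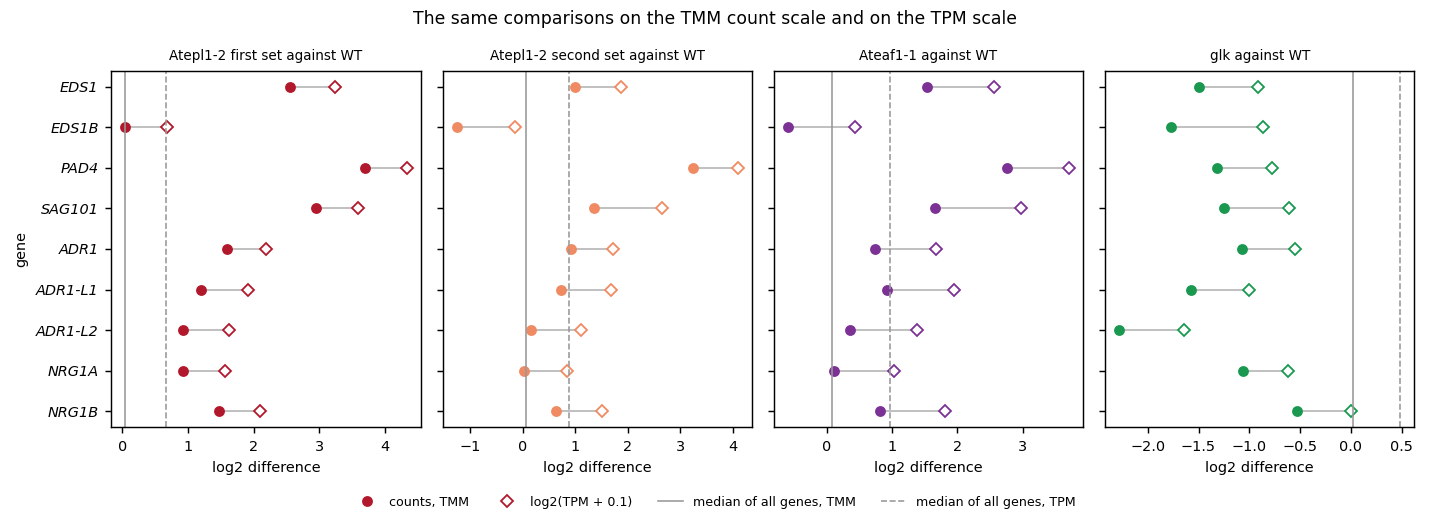
Log2 difference from WT for each gene (rows) in the 4 comparisons (panels), on the TMM count scale (filled) and on the log2(TPM + 0.1) scale (open), with the median of all genes tested as a solid line for TMM and a dashed line for TPM. *PAD4* and *SAG101* lay to the right of both medians in the NuA4 mutants, and all members lay to the left of both in *glk*.

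Genes downstream of the EDS1 node rose in every NuA4 comparison. The 10 genes listed encode pathogenesis-related (PR) proteins or serve the synthesis of salicylic acid and N-hydroxypipecolic acid. The latter encode enzymes, an exporter and the transcription factors CBP60g and SARD1. In *Atepl1-2* of the first set 10 rose, beside 23.3% of all genes tested. In the second set 10 rose, beside 16.8%, and in *Ateaf1-1* 10, beside 13.6%. The median log2 fold changes of the list were 6.04, 4.33 and 4.53. *FMO1* and *ALD1* had 0 to 4 and 0 to 8 counts in WT, and 0 to 1 and 0 to 3 in *glk*. Whether they could be tested depended on the groups where they were high. The count of 10 was thus partly set by the filter on low counts. *PBS3*, an enzyme of salicylic acid synthesis, had 207 to 306 CPM in *Atepl1-2* of the first set, 51.1 to 89.5 CPM in the second set and 63.6 to 81.5 CPM in *Ateaf1-1*, against 3.48 to 5.54 CPM in WT. *EDS5*, the chloroplast exporter of its precursor, rose by 5.44 ± 0.21, 4.496 ± 0.27 and 4.25 ± 0.26 on the log2 scale in these groups (FDR 2.14e-07, 7.66e-08 and 1.08e-07). *PR2* and *PR5*, the most used markers of this output beside *PR1*, rose by 8.10 ± 0.54 (FDR 1.57e-07) and 6.72 ± 0.39 (FDR 6.31e-08) in the second set. In *glk* 5 of the 10 fell, beside 7.45% of all genes, and 1 rose, beside 867 of 20733 genes. *PBS3* was higher at 1.04 ± 0.23 (FDR 0.00514), while *EDS5* was lower at −1.17 ± 0.28 (FDR 0.00919).

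The counts of the lists below stand beside the 23.3%, 16.8% and 13.6% of all genes that rose in *Atepl1-2* of the first set, *Atepl1-2* of the second set and *Ateaf1-1*, and the 7.45% that fell in *glk*. Of 10 genes for TIR-type receptors, 7 rose in *Atepl1-2* of the first set, 2 in the second set (*CHS1* and *TN2*) and 4 in *Ateaf1-1* (those and *SNC1* and *CHS3*), none fell in these groups, and in *glk* 2 fell (*CHS1* and *SOC3*). The count in the second set was close to the share of all genes. *TN2*, a truncated TIR-type receptor gene, had 97 to 151 counts, 67 to 108 counts and 58 to 64 counts in these 3 NuA4 groups, against 0 in every WT library, so it was at least 31.2-fold, 11.6-fold and 8.37-fold higher. Like *NRG1C*, it passed the filter on low counts only through these groups. *CHS1*, another truncated TIR-type gene, rose by 1.28 ± 0.17 in the second set (FDR 6.12e-05) and fell in *glk* (−2.11 ± 0.20, FDR 2.24e-05). Of 6 relatives of the helpers, 4 could be tested with the 4 genotypes: *HR1*, *HR3*, *HR4* and *NRG1C*. All 4 rose in the second *Atepl1-2* set and in *Ateaf1-1*. *NRG1C* had 0 counts in WT and *HR1* had 0 to 10, so whether they could be tested depended on the groups where they were high. The count of 4 of 4 was thus partly set by the filter on low counts. *HR4* had 206 to 246 CPM in the second set and 144 to 261 CPM in *Ateaf1-1*, with 2.39 to 7.86 CPM in *glk*, against 32.5 to 51.1 CPM in WT.

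Genes of neighbouring pathways were mixed. Among coiled-coil receptors and their partners, *NDR1* and *RIN4* rose in *Atepl1-2* of the first set, *RPM1* fell in the second set (−1.44 ± 0.32, FDR 0.00238), and *RPS2*, *RPM1*, *ZAR1* and *NDR1* fell in *glk*. In *Ateaf1-1* *RPM1* came nearest to the threshold, at −1.08 ± 0.31 (FDR 0.0137). Of 5 surface receptors and co-receptors, 3 rose in *Atepl1-2* of the first set (*SOBIR1*, *RLP23* and *CERK1*), 1 rose and 1 fell in the second set (the receptor-like protein gene *RLP23* at 5.27 and the flagellin receptor gene *FLS2* at −1.18), 2 rose in *Ateaf1-1* (*SOBIR1* and *RLP23*) and 2 fell in *glk* (*SOBIR1* and *BAK1*). Here too the rise of 1 of 5 in the second set was close to the share of all genes. Of 6 negative regulators of the node, 3 rose in *Atepl1-2* of the first set (*NUDT7*, *BON1* and *NPR4*), and *BON1* and *NPR4* alone in the second set and in *Ateaf1-1*. Their values include those of *BON1*, whose loss activates the TIR-type receptor SNC1, at 2.62 ± 0.18, 1.89 ± 0.19 and 1.43 ± 0.19 in these groups. *NUDT7*, a hydrolase whose loss activates EDS1-dependent immunity, had 0.84 ± 0.27 in the second set (FDR 0.0222) and fell in *glk* (−2.41 ± 0.30, FDR 1.36e-04), where *BON1* and *NPR3* fell too.

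For each member, the 3 nuclear genes with the most similar profile over the 16 libraries were taken by the smallest root-mean-square difference of log2 CPM, each gene centred on its own mean, among 17038 genes with a mean of at least 1 CPM. All 9 members spanned more than 2 on the log2 scale, from 2.24 for *NRG1B* to 5.62 for *PAD4*. *SAG101* was the second nearest gene to *EDS1* (0.271), after AT1G64610 (0.241) and before *PLDGAMMA1* (0.312), a phospholipase D gene that was also among the 3 nearest to *SAG101* (0.259). The calcium pump gene *ACA11* was among the 3 nearest to both *ADR1-L1* (0.244) and *ADR1-L2* (0.206), and AT2G40270 was among the 3 nearest to both *ADR1* (0.278) and *ADR1-L1* (0.272). The nearest gene to *PAD4* was AT1G24145 (0.191), to *SAG101* AT2G19130 (0.189), to *ADR1-L1* *CYP83B1* (0.174), to *NRG1A* the ubiquitin ligase gene *PUB17* (0.148) and to *NRG1B* AT2G14080 (0.190). The nearest gene to *EDS1B*, the purine permease gene *PUP7*, was farther away (0.383). These profiles share the libraries, their depth and the difference between label sets.

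The leaf label was borne out by its markers, though their levels moved with genotype. The 5 mesophyll markers summed to 9562 to 12216 CPM in *Atepl1-2* of the first set, 7396 to 11326 in the second set, 8331 to 14725 in *Ateaf1-1* and 7357 to 7784 in *glk*, against 15427 to 30526 in WT, and none was at 0. The 5 phloem and xylem markers were at 184 to 258, 93.2 to 152, 146 to 161 and 222 to 239 CPM in the mutants, against 273 to 488 in WT. The 5 meristem and flower markers summed to between 0.123 and 9.86 CPM in all libraries, and 3 of them were at 0 in WT. *AP3* and *PI*, genes of petals and stamens, were called higher in *glk*. In each of the 3 comparisons of NuA4 mutants with WT, 1 of the 5 markers was called higher. The sums were 2.63 to 2.82 CPM in *Atepl1-2* of the first set, 1.73 to 3.90 in the second set and 0.784 to 2.67 in *Ateaf1-1*. They were 5.51 to 9.86 CPM in *glk*, against 0.123 to 1.33 in WT. The 3 guard cell markers summed to 6.76 to 17.8 CPM in the NuA4 mutants and to 10.7 to 11.5 CPM in *glk*, against 12.3 to 22.5 CPM in WT. The 5 markers of leaf senescence, a state in which *SAG101* is known to be active, summed to 239 to 377 CPM, 119 to 144 CPM and 121 to 179 CPM in the NuA4 mutants and to 60.3 to 64.6 CPM in *glk*, against 60.4 to 73.6 CPM in WT, and the markers that rose were *SAG13* and *NYE1* in all 3 NuA4 comparisons and *PPH* in that of the first set. The part of these differences in the levels of the 9 genes was not tested.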

How the data were processed

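The authors cleaned reads with BBDuk2 and removed rRNA, quantified genes with Salmon (version 0.13.1 in the submitters' processing notes) and deposited estimated counts per gene, written as whole numbers, together with TPM values from the same quantification. ChIP-seq files were not used here, since they held no value per gene. All 16 RNA-seq libraries were grouped by genotype and label kind. The 9 genes, the 11 other gene lists and the tests were chosen with earlier results of these data known.

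Counts were filtered with filterByExpr, scaled with TMM and compared by two-sided quasi-likelihood tests in edgeR 4.0.16 (R 4.3.3). Comparisons with *Ateaf1-1*, *glk* and second-set *Atepl1-2* came from 1 fit of 13 libraries with all 4 WT (biological coefficient of variation 0.283), and the first label set was fitted alone (0.158). The interaction used 16 libraries. FDR values are Benjamini-Hochberg values over all genes of a fit. The SE is the absolute log2 fold change divided by the square root of F, and 95% intervals assume a normal error of that size. CPM per library used TMM factors over all 16 libraries. Counting error alone set the floor of 3 counts. Alternatives used DESeq2 1.42.0 and limma 3.58.1, and those that left out a library from the interaction were added after the data had been seen.

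From each other list at most 4 genes with the lowest FDR in second-set *Atepl1-2* against WT were named, plus *NRG1C*. The lists' remaining genes are counted only, except where a name was needed for a single call or for a limit set by low counts. Values of some genes in the list of coiled-coil receptors are not reported here. Sequences and positions came from RefSeq TAIR10.1, in which all 9 genes matched by identifier, and primers from the study's primer list. The authors quantified transcripts of Araport11, which uses the same chromosome sequences.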

Additional observations from a re-analysis of the deposited data

Results flagged for a closer look

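In a group of 4 libraries, 1 WT library stood apart for *NPR4*, a salicylic acid receptor that holds back defence genes: WT replicate 4 had 30.1 CPM, while WT replicates 5, 7 and 8 had 10.9, 10.1 and 10.2 CPM. Chance marks about 1 in 20 such groups, and many genes and ratios were screened, so some marks come by chance. The *Atepl1-2* effect on *NPR4* differed between the label sets by a log2 difference of 1.72 in edgeR. The second-set effect rests on the same WT replicate 4 alone, so this difference is not a separate observation. *NPR4* had 41.5 to 59.6 CPM in *Atepl1-2* of the first set and 35.3 to 52.2 CPM in *Atepl1-2* of the second set. None of the 9 genes described here had a WT library that stood apart in this way, in CPM or in TPM.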

How the results depend on the processing

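The count of the 9 genes that passed kept within 1.5 times its value under all alternatives run for *Atepl1-2* of the first set against WT and for the 3 comparisons between mutants. For *Atepl1-2* of the second set against WT, 3 genes passed as reported, and 6 (5 higher and 1 lower) with the DESeq2 Wald test, 8 on either TPM scale, 7 at an FDR under 0.05 and 7 with the label set as a term over 16 libraries. Of all genes, 6272 of 20733 passed as reported, 7562 with the DESeq2 Wald test and 8903 at an FDR under 0.05. It was 8184 and 9671 on the log2(TPM + 1) and log2(TPM + 0.1) scales, and 7553 of 22244 with the label set as a term. For *Ateaf1-1* against WT, 4 became 8 on either TPM scale and 2 against WT replicate 4 alone. For *glk* against WT, 8 became 1 on either TPM scale, 2 with the label set as a term and 1 against WT replicate 4 alone. The cause of these changes was not tested. Leaving out 1 library at a time gave 2 to 5 genes for *Atepl1-2* of the second set, 3 to 5 for *Ateaf1-1*, 2 to 8 for *glk* and 7 to 8 for *Atepl1-2* of the first set against WT. It gave 0 to 0 for *Atepl1-2* of the second set against *Ateaf1-1*, 7 to 8 and 8 to 8 for these mutants against *glk*, and 0 to 1 for the interaction with the label set, where *SAG101* passed without replicate 1 of the second *Atepl1-2* set. Changes of sign were found only for values that passed no threshold. *NRG1A* in *Atepl1-2* of the second set against WT had −0.00067 with DESeq2, −0.00048 with its size factors in edgeR and −0.072 to 0.18 with 1 library left out, negative without WT replicate 5 or 8 or *Atepl1-2* replicate 1. *EDS1B* in *Ateaf1-1* against WT had 0.15 and 0.44 on the log2(TPM + 1) and log2(TPM + 0.1) scales, and *NRG1B* in *glk* had 0.0026 on the log2(TPM + 0.1) scale. With 1 library left out, *EDS1B* in *Atepl1-2* of the first set against WT ranged from −0.28 to 0.47. Likewise, between *Atepl1-2* of the second set and *Ateaf1-1*, *ADR1* ranged from −0.054 to 0.37, *NRG1B* from −0.32 to 0.0025 and *NRG1A* from −0.25 to 0.010, and the interaction for *PAD4* from −0.22 to 0.022. With the replicate number as a block, only libraries with shared numbers could be used. Between *Atepl1-2* of the second set and *Ateaf1-1* these were replicates 1 and 3 of each. There 0 of all 20240 genes passed, so the 0 of 9 says nothing about the members. In that fit *ADR1-L2* had 0.12, *NRG1A* 0.036 and *NRG1B* 0.0064. Against *glk* 8 of 9 passed in each mutant, beside 8385 of 20327 genes in *Atepl1-2* and 4289 of 19736 in *Ateaf1-1*, in either direction. Deviations of same-numbered libraries correlated at −0.09 to 0.15 over 22244 genes, so the numbers were not taken to pair the libraries. No paired analysis was possible because WT and the mutants shared fewer than 2 replicate numbers for the comparisons with WT. For *Atepl1-2* of the first set the fit of the compared groups alone is the reported one. Small *EDS1B* counts, and WT replicate 4 as the only WT library of its label set, limit what the comparisons with second-set mutants can show.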
